A study of Mus musculus with 8 samples.

Results

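The mitochondrial ribosomal protein genes were the rows of the liver count tables whose symbol begins with Mrpl or Mrps and a digit, which gave 77 genes (48 *Mrpl* and 29 *Mrps*) of 23282 rows. Mitochondrial ribosomes work inside the organelle and translate the few proteins that mitochondrial DNA encodes, all of them core subunits of the oxidative phosphorylation complexes. Their RNA is mitochondrial, but every one of their proteins is encoded in the nucleus, made in the cytosol and imported. Some of these proteins have a homologue in the bacterial ribosome, and the others were added in the mitochondrial lineage. Liver parenchyma is rich in mitochondria, which carry out fatty acid oxidation, urea synthesis and much of gluconeogenesis there.

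Male C57BL/6 mice were 4 weeks of age according to the labels, and liver RNA was sequenced from 3 groups. The control group received saline. The endotoxemic group received 25 mg/kg LPS, the bacterial endotoxin, by intraperitoneal injection. The LGK974 group received, by the study's methods, 60 mg/kg LGK974, an inhibitor of the acyltransferase that Wnt proteins need for secretion, together with 25 mg/kg LPS. The labels of this last group name LGK974 alone, without a dose. Livers were taken 6 h after LPS, and LGK974 was given 2 h before LPS in most experiments of the study. The sources used here do not say whether each library came from a single mouse, and p-values therefore measure only the spread between these libraries, which may be partly technical.

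There were 2 control, 4 endotoxemic and 2 LGK974 libraries, but endotoxemic libraries 3 and 4 carried the same count as libraries 1 and 2 on every row and were counted once, which left 6 distinct libraries, 2 in each group. Totals lay between 9142116 and 15222439 counts, and 3 counts, the smallest signal taken as shown, came to between 0.196 and 0.327 CPM (counts scaled to the library total after TMM normalization), a floor that covers counting error only. Among 23059 rows whose gene has a position on GRCm38, 526 stood out of genomic order, more than 2 Mb from the genes on neighbouring rows, so that their symbols are in doubt. None of the 77 mitochondrial ribosomal protein rows was among them, and 75 had the next ordered genes on both adjacent rows. The row after *Mrpl4* carries *Cxcl11*, a symbol out of order, and the row before *Mrps17* a symbol that had become a date. *Mrpl4* was at 26.6 and 22.6 CPM in control, 26.9 and 28.1 CPM in endotoxemic and 30.9 and 34.0 CPM in LGK974 liver and *Mrps17* at 44.0 and 48.1 CPM in control, 30.3 and 38.4 CPM in endotoxemic and 59.0 and 51.6 CPM in LGK974 liver, and neither passed the threshold in any comparison. Against the male label, *Xist* had between 1171 and 3115 counts in control and endotoxemic liver but 3 and 7 counts in LGK974 liver, while Y-linked *Ddx3y* had 0 counts in the former and 1755 and 1392 in the latter. No member lies on X or Y, but in both comparisons that involve the LGK974 group this difference and the treatment cannot be told apart. The hepatocyte marker *Alb* was abundant in every library, with between 210581 and 914224 counts.

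All 77 genes had counts in each of the 6 libraries, from 17 to 3448, and all 77 passed edgeR's filter on low counts, so no member was lost to it. Their mean level over the 6 libraries ranged from 2.71 to 142.5 CPM with a median of 37.8 CPM. Since QuantSeq reads each transcript once, at its 3′ end, no correction for length was made. Ranks between genes still depend on how reads were assigned to genes, which the sources used here do not give. By this mean over the 3 groups, the highest were *Mrpl17*, *Mrpl53* and *Mrpl12*, and the lowest were *Mrpl21*, *Mrps36* and *Mrpl15*, but the order changed with the group. *Mrpl12* ranked 1 of 77 in control (mean 172.0 CPM), 22 in endotoxemic (42.1 CPM) and 7 in LGK974 liver (83.2 CPM), while *Mrpl17* ranked 6 in control (87.7 CPM) and 1 in the endotoxemic and LGK974 groups (127.9 and 212.0 CPM). The genes lie on 17 chromosomes, and in the GENCODE annotation of GRCm38 26 of them overlap another protein-coding gene, 23 of them on the opposite strand. By the subunit lists, 30 encode large-subunit proteins with bacterial homologues, 20 large-subunit proteins found in mitochondria only, 16 small-subunit proteins with bacterial homologues and 10 small-subunit proteins found in mitochondria only. *Mrps18a* and *Mrps30* count with the large subunit, where their proteins sit despite the symbol. *Mrps36* stands outside these classes, since its product is now known as a component of the 2-oxoglutarate dehydrogenase complex.

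The promoters of the members that the results below turn on are printed here from RefSeq (GRCm38.p6), as the 250 bases before the annotated start, 5′ to 3′ on the strand of the gene. *Mrpl12* (chr11:120484387-120484636, plus strand) and *Mrpl34* (chr8:71464676-71464925, plus strand) had the largest falls in endotoxemic liver. *Mrpl49* (chr19:6057756-6058005, minus strand) and *Mrpl30* (chr1:37890227-37890476, plus strand) had the largest rises. *Mrpl17* (chr7:105811088-105811337, minus strand) had the largest rise in the LGK974 group over control. Capitals mark matches to the core motifs CCGGAAG of the ETS family, which includes the GA-binding protein GABPA, and GCATGCG of NRF1, both known regulators of nuclear genes for mitochondrial proteins. Both strands were searched.

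Mrpl12: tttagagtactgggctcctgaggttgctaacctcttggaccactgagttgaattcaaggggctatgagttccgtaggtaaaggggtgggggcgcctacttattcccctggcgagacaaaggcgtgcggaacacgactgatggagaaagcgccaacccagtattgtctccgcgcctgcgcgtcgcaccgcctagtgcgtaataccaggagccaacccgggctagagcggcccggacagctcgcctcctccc
Mrpl34: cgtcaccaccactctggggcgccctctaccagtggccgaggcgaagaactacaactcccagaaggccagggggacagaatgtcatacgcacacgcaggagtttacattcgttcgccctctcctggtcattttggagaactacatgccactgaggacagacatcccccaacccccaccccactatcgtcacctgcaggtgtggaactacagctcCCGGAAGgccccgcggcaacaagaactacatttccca
Mrpl49: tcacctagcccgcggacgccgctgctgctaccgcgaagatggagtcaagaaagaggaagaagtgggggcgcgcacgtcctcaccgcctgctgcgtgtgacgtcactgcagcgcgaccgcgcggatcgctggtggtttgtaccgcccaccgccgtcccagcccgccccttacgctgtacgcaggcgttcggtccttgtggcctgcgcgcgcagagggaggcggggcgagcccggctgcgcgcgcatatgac
Mrpl30: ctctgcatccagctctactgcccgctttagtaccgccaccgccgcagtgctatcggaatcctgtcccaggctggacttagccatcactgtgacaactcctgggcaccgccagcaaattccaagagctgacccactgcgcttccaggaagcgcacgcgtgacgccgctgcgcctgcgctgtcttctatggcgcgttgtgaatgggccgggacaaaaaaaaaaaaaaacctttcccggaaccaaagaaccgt
Mrpl17: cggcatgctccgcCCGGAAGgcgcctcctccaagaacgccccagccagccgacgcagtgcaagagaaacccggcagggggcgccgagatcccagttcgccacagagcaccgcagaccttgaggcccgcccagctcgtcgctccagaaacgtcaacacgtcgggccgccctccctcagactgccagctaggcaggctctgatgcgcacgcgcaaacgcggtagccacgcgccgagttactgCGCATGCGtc

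*Mrpl34* had an ETS match at positions −37 to −31 relative to its start. *Mrpl17* had an ETS match at positions −237 to −231 and the NRF1 motif on both strands at positions −10 to −3. In the windows of *Mrpl12*, *Mrpl49* and *Mrpl30* none of these letters occurred, nor did the YY1 core ATGGCGG. RefSeq gave a promoter of 250 bases before and 50 bases after the start for 68 of the 77 members. The ETS core was present in 24 of these 68 windows (35.3%), compared with 17.9% of 9632 promoters of tested genes and 9.12% of all 27025 promoters. YY1's core was found in 13 members (19.1%), against 8.29% of tested genes. NRF1's core was found in 8 members (11.8%), against 6.44%. A TATA box, searched as TATAAA, was found in 4 members (5.88%), against 7.83%. No match of 1 motif overlapped a match of another. Calls below are at an edgeR adjusted p under 0.05, which 43.4% of all rows tested met in endotoxemic against control liver, 34.1% in the LGK974 group against control and 5.62% between the LGK974 and endotoxemic groups. Of the 24 members with an ETS match, 2 were higher and 2 lower in endotoxemic than in control liver, with a median log2 fold change of −0.18, and of the 44 without it 4 were higher and 9 lower, with a median of −0.22. In the LGK974 group against control, 5 were higher and 0 lower with a match (median 0.18), and 3 were higher and 3 lower without it (median −0.02). Between the LGK974 and endotoxemic groups the medians were 0.37 with and 0.16 without a match, with 0 and 3 calls. These splits are descriptions without a test.

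The first comparison asked how LPS changed these transcripts. In endotoxemic liver the family moved in both directions: 8 genes rose and 12 fell at an adjusted p below 0.05 (edgeR's quasi-likelihood test with Benjamini-Hochberg adjustment over the 12701 rows tested), and 57 did not pass. The falls reached 4.08-fold for *Mrpl12* and the rises 2.52-fold for *Mrpl49*. Called members made up 26.0% of the family, whereas 43.4% of all rows tested were called, 20.4% as higher and 23.0% as lower. The median log2 fold change of the 77 genes was −0.21, against 0.01 over all rows, with 45 genes below 0 and 32 above it. Besides those described below, *Mrpl28*, *Mrpl42*, *Mrpl23*, *Mrps35*, *Mrps5* and *Mrps15* fell and *Mrpl17*, *Mrpl32* and *Mrpl47* rose. Under 11 other ways of processing the counts, *Mrpl23* was called in only 4 and *Mrpl32* in 8. The control and endotoxemic libraries did not overlap in level for 19 members that were higher in the endotoxemic group and 37 that were lower (over all rows 37.9% and 39.2%).

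*Mrpl12* encodes the large-subunit protein of the stalk that contacts translation factors, and its product also binds the mitochondrial RNA polymerase. Its gene lies at chr11:120484613-120489065 (GRCm38, plus strand). It was at 192.4 and 151.6 CPM in control, 42.6 and 41.7 CPM in endotoxemic and 66.7 and 99.7 CPM in LGK974 liver. The 3 groups did not overlap, with control highest and endotoxemic lowest. Against control, the endotoxemic log2 fold change came to −2.03 ± 0.25 (SE) with an edgeR adjusted p of 0.000204. *Mrpl34* (chr8:71464959-71465747, plus strand), which encodes a small basic protein of the large subunit, was at 134.0 and 140.1 CPM in control, 37.3 and 44.5 CPM in endotoxemic and 44.2 and 108.6 CPM in LGK974 liver. LGK974 library 1 lay within the endotoxemic range and library 2 well above it. From control to endotoxemic liver *Mrpl34* fell by 1.74 on the log2 scale (SE 0.36, edgeR adjusted p = 0.00439).

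*Mrpl14* (chr17:45686322-45698495, plus strand) encodes a protein on the face of the large subunit that meets the small one. It was at 94.7 and 106.3 CPM in control, 38.3 and 42.1 CPM in endotoxemic and 32.7 and 56.6 CPM in LGK974 liver, so that the control libraries stood above the other 4. Its log2 fold change in endotoxemic liver was −1.32 with an SE of 0.27 (edgeR adjusted p = 0.00367). *Mrps16* (chr14:20389304-20393634, minus strand) had the largest fall among small-subunit genes. It was at 56.2 and 52.4 CPM in control, 26.5 and 26.8 CPM in endotoxemic and 34.2 and 42.8 CPM in LGK974 liver, and the 3 groups did not overlap. *Mrps16* had a log2 fold change in endotoxemic liver of −1.03, with an SE of 0.20 (edgeR adjusted p = 0.00343). *Mrps36* (chr13:100735955-100744659, minus strand) was low throughout, at 8.82 and 9.02 CPM in control, 3.93 and 3.41 CPM in endotoxemic and 2.64 and 6.43 CPM in LGK974 liver. Its endotoxemic to control log2 fold change, −1.28 ± 0.45 (SE), was near the threshold (edgeR adjusted p = 0.0437), which it missed with library totals in place of TMM and without any 1 of the control or endotoxemic libraries.

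Among the genes that rose, *Mrpl49* (chr19:6053622-6057785, minus strand), for a mitochondria-specific protein of the large subunit, was at 43.1 and 47.2 CPM in control, 123.2 and 104.4 CPM in endotoxemic and 57.8 and 48.7 CPM in LGK974 liver. The endotoxemic libraries stood apart, and the control and LGK974 libraries were next to each other. Its log2 fold change in endotoxemic liver was 1.33 ± 0.20 (SE, edgeR adjusted p = 0.000743). *Mrpl30* (chr1:37890477-37898535, plus strand), for a large-subunit protein with a bacterial homologue, was at 36.0 and 48.9 CPM in control, 100.9 and 103.3 CPM in endotoxemic and 72.3 and 69.0 CPM in LGK974 liver. The groups did not overlap, and the log2 fold change in endotoxemic liver was 1.26 ± 0.21 (SE, edgeR adjusted p = 0.00125). *Mrpl19*, *Mrpl54* and *Mrps18b* rose by less. *Mrpl19* went from 12.1 and 11.0 CPM in control to 21.4 and 20.4 CPM in endotoxemic liver, *Mrpl54* from 40.1 and 41.3 to 70.8 and 72.8 CPM, and *Mrps18b* from 33.6 and 34.1 to 59.5 and 55.2 CPM. Their log2 fold changes were 0.86, 0.82 and 0.76, with edgeR adjusted p values of 0.0144, 0.00611 and 0.0123, and in none of the 3 did control and endotoxemic libraries overlap.

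**Figure D1:**
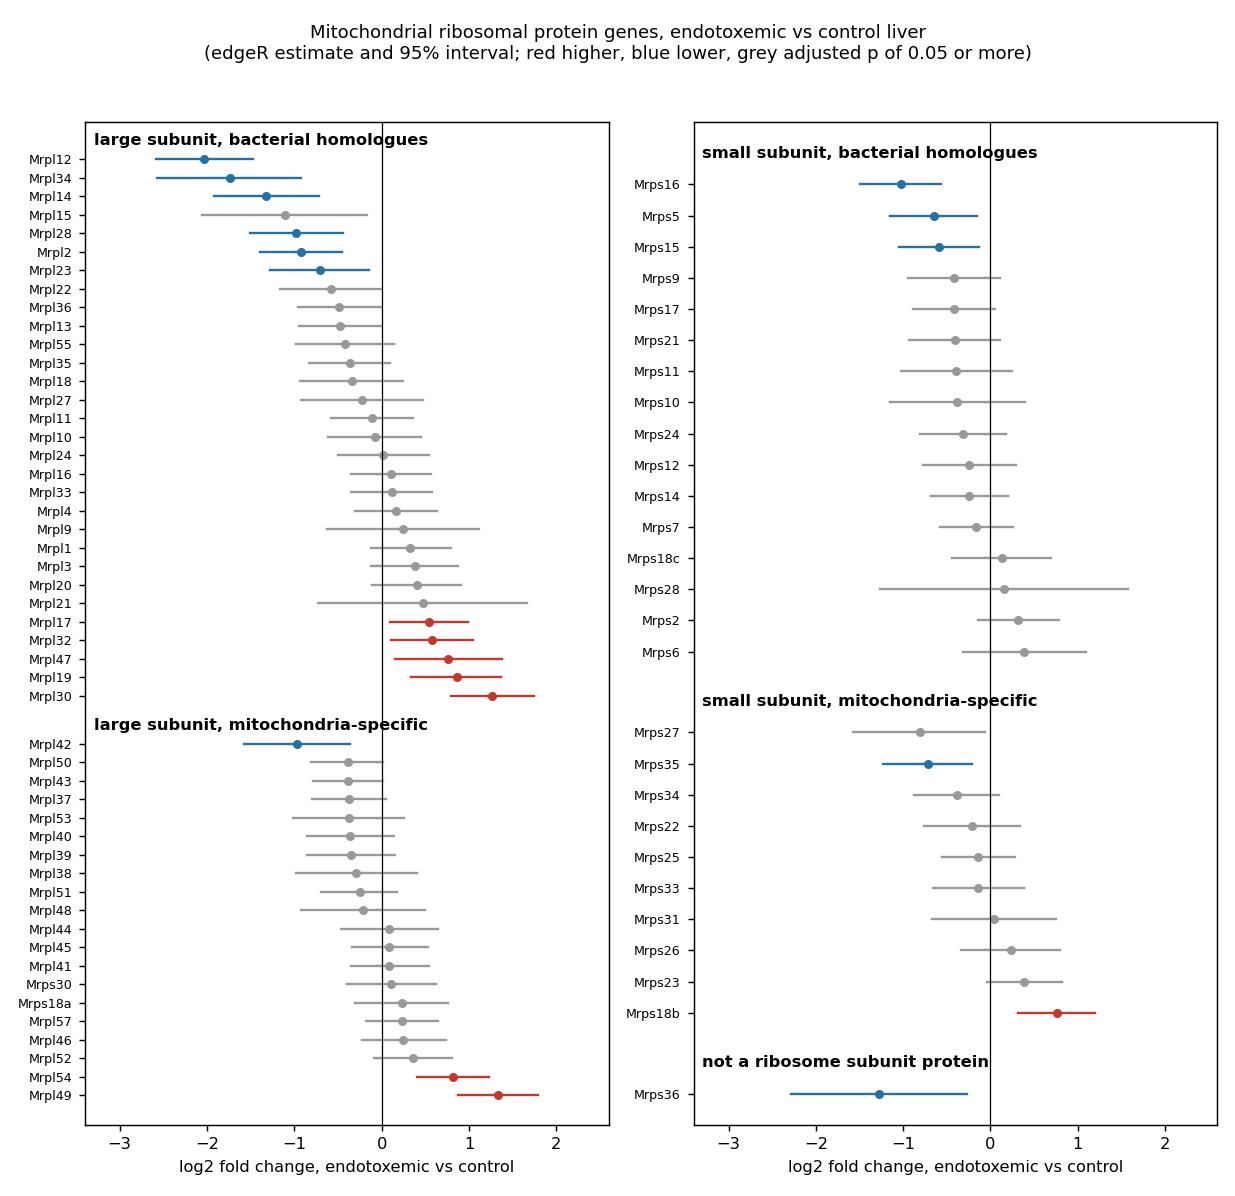
Log2 fold change of each of the 77 genes in endotoxemic against control liver, by subunit class. Points are edgeR estimates and lines 95% intervals (red, higher and blue, lower at an adjusted p below 0.05, grey, 0.05 or more), and they run from −2.03 for *Mrpl12* to 1.33 for *Mrpl49*.

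**Figure D2:**
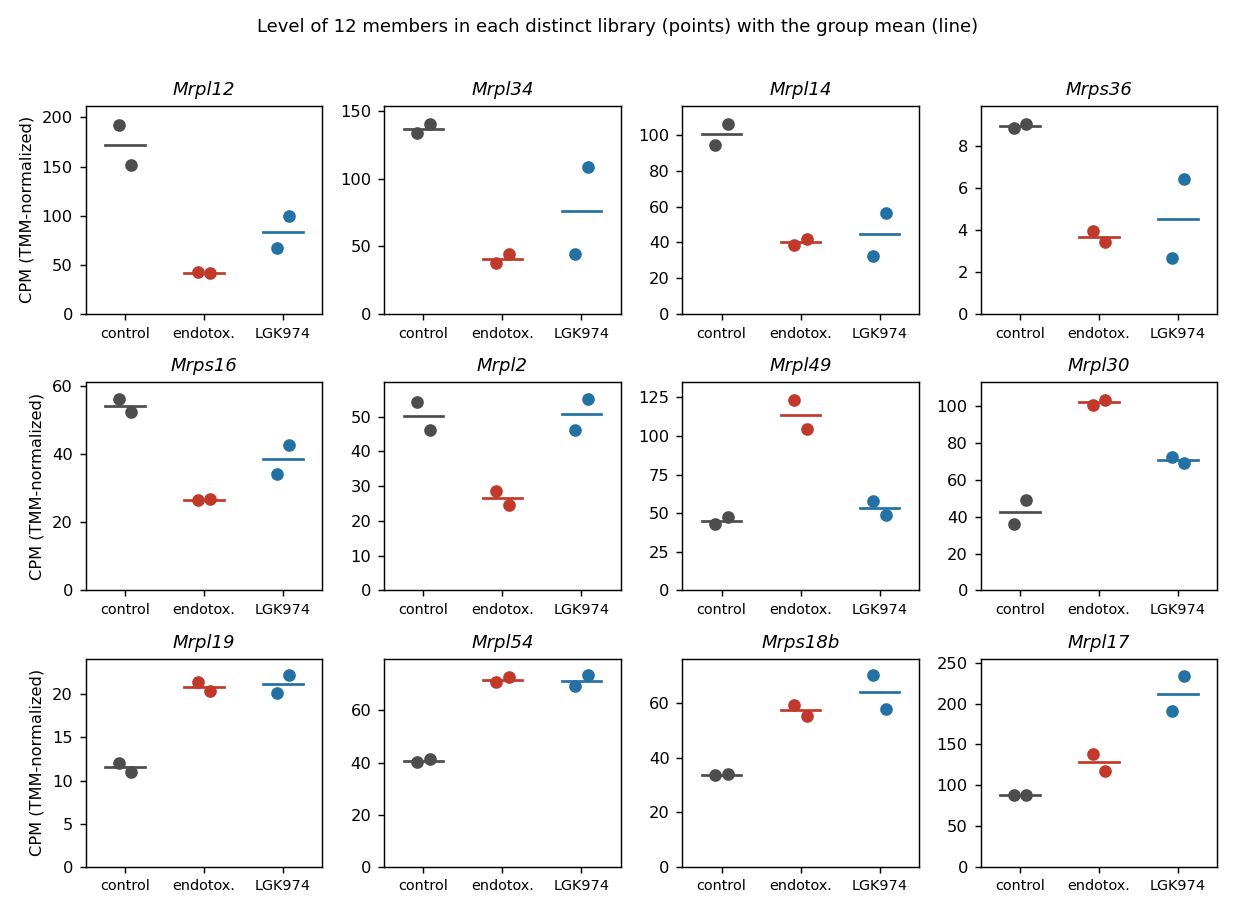
TMM-normalized CPM of 12 named members in each distinct library (points) with the group mean (line), on axes that start at 0. *Mrpl12* is at 192.4 and 151.6 CPM in control and 42.6 and 41.7 CPM in endotoxemic liver, and the LGK974 libraries of *Mrpl34* lie far apart, at 44.2 and 108.6 CPM.

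Leaving out control library 1 left 2 higher and 4 lower members, leaving out control library 2 left 2 and 5, leaving out endotoxemic library 1 (with its copy) left 3 and 5, and leaving out endotoxemic library 2 left 2 and 4. The share of all rows called fell too, from 43.4% to 25.8%, 28.4%, 26.5% and 26.4%, in the same order. With library totals in place of TMM, 8 members were higher and 8 lower. *Mrpl12*, *Mrpl34*, *Mrpl14*, *Mrps16*, *Mrpl49* and *Mrpl30* were called in all 11 other processing alternatives and without any single library, and each of the other 14 calls was lost without at least 1 library. Expression of the 9 hepatocyte markers on rows in order fell alongside (8 of 9 lower), with summed levels of 127700 and 94450 CPM in control against 57300 and 40020 CPM in endotoxemic liver, and none was at 0. All 6 neutrophil markers on rows in order, of 10 listed, were higher, their sum going from 4.08 and 3.27 CPM to 110.9 and 116.7 CPM. Of 7 Kupffer cell markers 1 rose and 3 fell, with sums between 187.6 and 207.4 CPM in both groups, and without *Marco*, the one that rose, the other 6 went from 180.7 and 198.1 CPM to 105.6 and 132.9 CPM. Of 7 sinusoidal endothelial markers 2 rose and 3 fell, with sums of 242.9 and 264.2 CPM in control and 452.2 and 451.0 CPM in endotoxemic liver. *Lyve1* alone went from 49.5 and 35.7 CPM to 359.9 and 336.1 CPM, and the other 6 from 193.4 and 228.5 CPM to 92.3 and 114.9 CPM. T and NK cell markers summed to at most 5.11 CPM in any library, with *Ncr1* at 0. Fewer cells of a type and less RNA per cell cannot be told apart in bulk liver, and the part of these shifts in the result was not tested.

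Split by subunit and origin, both directions occurred in 3 of the 4 classes. The share called was 36.7% and 15.0% for large-subunit genes with bacterial homologues and mitochondria-specific ones. For the same classes of the small subunit it was 18.8% and 20.0%. All 4 shares lay below the 43.4% of all rows. Among large-subunit genes with bacterial homologues 5 of 30 rose and 6 fell, with a median log2 fold change of −0.10. In the small subunit, none of the 16 genes with bacterial homologues rose and 3 fell (*Mrps16*, *Mrps5* and *Mrps15*), with a median of −0.34. These falls are 18.8% of the class, against 23.0% of all rows called lower. The call of *Mrps5* was lost with library totals, that of *Mrps15* in 3 of 11 alternatives, and both without any 1 of the control or endotoxemic libraries. Of the 20 mitochondria-specific large-subunit genes 2 rose and 1 fell, with a median of −0.06, and of the 10 mitochondria-specific small-subunit genes 1 rose and 1 fell, with a median of −0.14. *Mrps12*, whose protein lies at the decoding centre, was at 81.4 and 55.8 CPM in control and 62.7 and 53.6 CPM in endotoxemic liver, where the groups overlapped (log2 fold change −0.24, 95% interval −0.77 to 0.29, edgeR adjusted p = 0.443). *Mrpl45*, whose protein anchors the ribosome at the inner membrane, was at 41.0 and 43.6 CPM in control and 44.3 and 45.9 CPM in endotoxemic liver (log2 fold change 0.09, 95% interval −0.34 to 0.53, edgeR adjusted p = 0.725). No difference between the classes was tested.

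Summed over all 77 genes, the level was 3412 and 3329 CPM in control, 3070 and 2939 CPM in endotoxemic and 3341 and 3777 CPM in LGK974 liver. The endotoxemic mean was 10.9% below the control mean. Of the mean difference of −366.2 CPM, *Mrpl12* made up −129.9 CPM, *Mrpl34* −96.2 CPM and *Mrpl14* −60.3 CPM, and the sum of the other 74 genes, a split chosen after the values were seen, changed by −2.7%. By class, the endotoxemic mean differed from the control mean by −16.8% for large-subunit genes with bacterial homologues, 1.0% for mitochondria-specific large-subunit genes, −18.4% for small-subunit genes with bacterial homologues and −2.9% for mitochondria-specific small-subunit genes. *Mrpl12*, *Mrpl34* and *Mrpl14* all belong to the first of these classes. The other 27 genes of that class summed to 1039 and 1018 CPM in control and 1099 and 1047 CPM in endotoxemic liver (4.3%). Both remainders, of 74 and of 27 genes, leave out the 3 largest called falls and keep every called rise. That choice by itself pushes the remainders upward, so the sign of the 4.3% is not a result about the rest of the class. Control and endotoxemic libraries did not overlap in the sums of either whole class with bacterial homologues, and overlapped in the other classes. With 2 libraries against 2, an exact two-sided permutation test of a sum cannot go below p = 0.333. The ratio of summed *Mrpl* to summed *Mrps* counts lay between 2.135 and 2.345 in the 6 libraries.

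**Figure D3:**
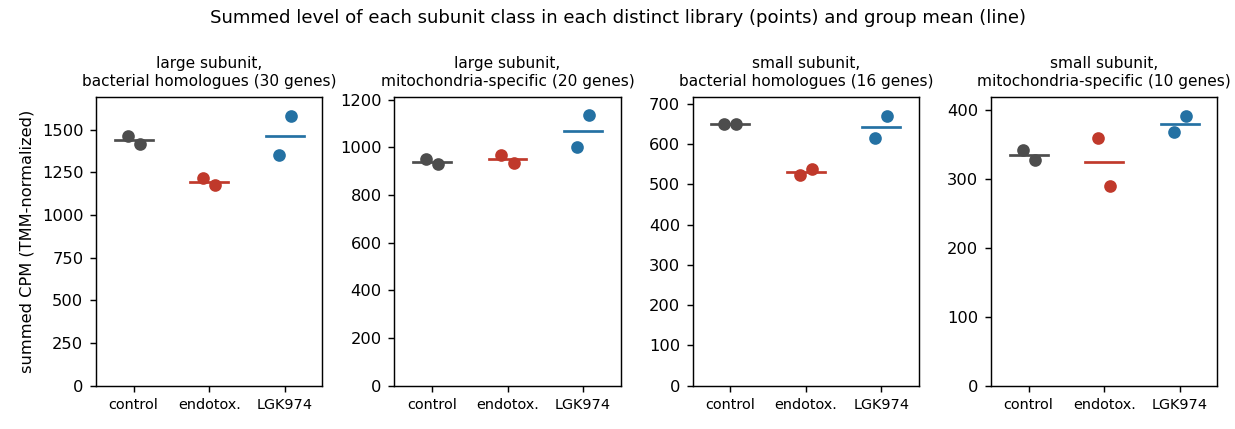
Summed TMM-normalized CPM of the 4 subunit classes in each distinct library (points) with the group mean (line), on axes that start at 0. For small-subunit genes with bacterial homologues the control libraries are at 650.0 and 648.2 CPM and the endotoxemic libraries at 522.9 and 536.5 CPM.

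The second comparison asked what LGK974 changed on the background of LPS. 3 members passed the threshold: *Mrpl2* and *Mrpl12* were above and *Mrpl49* was below their endotoxemic levels in the LGK974 group. That is 3.90% of the family, against 5.62% of all rows tested (2.8% higher and 2.82% lower). *Mrpl2*, for a protein near the catalytic centre of the large subunit (chr17:46646229-46650139, plus strand), was at 54.1 and 46.1 CPM in control, 28.5 and 24.5 CPM in endotoxemic and 46.3 and 55.0 CPM in LGK974 liver. The control and LGK974 libraries covered nearly the same range, and the endotoxemic ones lay below it. LGK974 against endotoxemic liver gave a log2 fold change of 0.93, with an SE of 0.21 (edgeR adjusted p = 0.0365). For *Mrpl12* the difference was 0.98 ± 0.24 (SE, edgeR adjusted p = 0.0486), and for *Mrpl49* it was −1.10 ± 0.20 (SE, edgeR adjusted p = 0.0185). This comparison and the first share the endotoxemic libraries, so their values for a gene are not independent of each other. Over the whole family the median log2 fold change was 0.21, against 0.03 over all rows, with 60 members above 0 and 17 below. This shift was not particular to the family. Of 75 cytosolic ribosomal protein genes 73 lay above 0 (median 0.38), as did 60 of 75 nuclear oxidative phosphorylation genes (median 0.18). The libraries of the groups did not overlap for 30 members that were higher in the LGK974 group and 9 that were lower (over all rows 26.5% and 26.0%).

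Without any 1 of the control or endotoxemic libraries no member was called in this comparison, and between 0.367% and 2.25% of all rows were. Without LGK974 library 1 there were 13 higher and 2 lower members (17.1% of all rows called), and without LGK974 library 2 there were 4 and 1 (9.53% of all rows). *Mrpl12* also missed the threshold with DESeq2 size factors, with library totals and with the replicate block. In the fit of the 2 groups alone 0 members were called, while 2.26% of all rows were. In the fit of all 3 groups 18 of the 77 members (23.4%) had an unadjusted p below 0.05, a share near the 22.9% of all rows. All 7 Kupffer cell markers had log2 fold changes below 0 here, 1 of them called, with sums of 127.3 and 163.8 CPM in the LGK974 group against 202.2 and 207.4 CPM in the endotoxemic group. No hepatocyte or neutrophil marker was called by edgeR (2 and 1 had an unadjusted p below 0.05), and 1 of 7 sinusoidal endothelial markers was lower. Their part in the values was not tested.

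The third comparison set the LGK974 group against control. 10 members were higher and 4 lower, which is 18.2% of the family against 34.1% of all rows (16.4% higher and 17.7% lower). The median log2 fold change was 0.06, against 0.02 over all rows. Libraries did not overlap for 25 members that were higher in the LGK974 group and 22 that were lower (over all rows 33.8% and 34.3%). *Mrpl17* (chr7:105803206-105811099, minus strand), for a protein beside the exit of the peptide tunnel, had the largest rise. It was at 87.9 and 87.5 CPM in control, 138.8 and 117.0 CPM in endotoxemic and 190.7 and 233.3 CPM in LGK974 liver, with no overlap between the 3 groups. On the log2 scale it was above control by 1.27 ± 0.20 (SE) in the LGK974 group (edgeR adjusted p = 0.00123) and by 0.54 ± 0.20 (SE) in the endotoxemic group (edgeR adjusted p = 0.0499), a call lost with the replicate block, with reassigned symbols and without any 1 control or endotoxemic library. Between the LGK974 and endotoxemic groups the difference was 0.73 ± 0.20 (SE) with an edgeR adjusted p of 0.0653.

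*Mrpl41* and *Mrpl57*, both for mitochondria-specific proteins of the large subunit, passed the threshold against control in the LGK974 group but not in the endotoxemic group (edgeR adjusted p = 0.725 and 0.334). *Mrpl41* was at 26.0 and 29.7 CPM in control, 28.3 and 31.2 CPM in endotoxemic and 48.9 and 50.6 CPM in LGK974 liver (log2 fold change from control 0.84, edgeR adjusted p = 0.0101). *Mrpl57* was at 47.7 and 43.9 CPM in control, 56.2 and 51.6 CPM in endotoxemic and 80.7 and 85.2 CPM in LGK974 liver (0.86, edgeR adjusted p = 0.00689). In both genes the LGK974 libraries lay above the other 4. Against the endotoxemic group, however, the log2 fold changes of 0.74 and 0.62 had edgeR adjusted p values of 0.062 and 0.0856. *Mrps18b* and *Mrpl19* were higher in the LGK974 group by 0.92 and 0.88 on the log2 scale (edgeR adjusted p = 0.00625 and 0.0157), and the remaining members that were higher were *Mrps18a*, *Mrps23*, *Mrpl54*, *Mrpl30* and *Mrpl20*. The log2 fold change of *Mrpl20*, 0.68, ran from 0.37 to 0.94 over the other fits, and its call held in 10 of 11 processing alternatives.

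The 4 members below control in the LGK974 group were *Mrpl15*, *Mrpl14*, *Mrpl12* and *Mrps5*. *Mrpl15* (chr1:4773206-4785739, minus strand), a low gene, had 175 and 153 counts in control, 48 and 64 in endotoxemic and 36 and 85 in LGK974 liver, so that in CPM its control libraries lay above all others. From control to the LGK974 group the log2 fold change was −1.62, with an SE of 0.42 (edgeR adjusted p = 0.0165). *Mrpl14* and *Mrpl12* were lower by −1.17 ± 0.26 and −1.05 ± 0.24 on the log2 scale (SE, edgeR adjusted p = 0.00846 and 0.00878). *Mrps5*, for a protein at the mRNA entrance of the small subunit, was at 58.6 and 73.0 CPM in control, 39.4 and 44.7 CPM in endotoxemic and 34.7 and 45.4 CPM in LGK974 liver (−0.72 from control to LGK974, edgeR adjusted p = 0.033), a call that was lost in the fit of the 2 groups alone and without 5 of the 6 libraries in turn. *Mrpl17* alone among the 14 calls kept its call without any single library. Without control library 1 there were 1 higher and 1 lower members, without control library 2 there were 2 and 2, and without LGK974 library 2 there were 13 and 12, while 17.8%, 19.2% and 41.1% of all rows were called. Hepatocyte markers were again lower than control (6 of 9), with summed levels of 46750 and 42460 CPM in the LGK974 group, and 5 of 6 neutrophil markers were higher, at 81.7 and 77.2 CPM in sum. Of 7 Kupffer cell markers 1 was higher and 4 were lower (127.3 and 163.8 CPM in sum), and of 7 sinusoidal endothelial markers 2 were higher and 4 lower (480.9 and 618.3 CPM in sum). Without *Marco* the Kupffer sums were 66.4 and 66.6 CPM, and without *Lyve1* the endothelial sums were 81.8 and 119.8 CPM. The part of these shifts in the values was not tested.

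The abundant *Mrpl53* (chr6:83109040-83109939, plus strand) had unlike levels in the LGK974 libraries, 100.7 CPM in library 1 and 191.4 CPM in library 2, one below and one above both the control levels of 147.9 and 128.9 CPM and the endotoxemic levels of 108.9 and 104.5 CPM. None of its comparisons passed the threshold. *Mrpl21*, the lowest member, stayed between 1.28 and 3.93 CPM in all 6 libraries, and none of its comparisons passed either.

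Some members have another gene close to their start or overlapping them, and these neighbours were measured in the same libraries. A protein-coding gene starts within 1 kb on the other strand, facing away, for 18 members, and 17 such pairs had both genes tested. In endotoxemic against control liver the member was called in 7 of these pairs and the neighbour in 6, while 43.4% of all rows were called. The signs were the same in 11 of the 17 pairs. In 4 pairs both genes were called, each time in the same direction. *Mrpl30* rose with *Mitd1*, whose start lies 66 bases away, within the sequence printed above (log2 fold change of *Mitd1* 2.03, edgeR adjusted p = 0.000113). *Mrps18b* rose with *Ppp1r10* (1.01), *Mrpl32* rose with *Psma2*, a proteasome subunit gene (0.71), and *Mrpl2* fell with *Klc4*, a kinesin light chain gene (−1.04). *Mrpl49*, by contrast, has *Fau*, which encodes a cytosolic ribosomal protein, starting 59 bases away, and the log2 fold change of *Fau* was −0.29 (edgeR adjusted p = 0.281) beside 1.33 for *Mrpl49*. Across the 17 pairs, which share their libraries and are not independent replicates, the log2 fold changes of member and neighbour had a Pearson's r of 0.44 in endotoxemic against control liver, 0.15 between the LGK974 and endotoxemic groups and 0.04 between the LGK974 group and control.

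Overlap with a protein-coding gene outside the family on the opposite strand concerned 18 tested pairs (16 members). *Mrpl46* and *Mrps11*, members that overlap each other on opposite strands, were left out of these pairs, and their log2 fold changes in endotoxemic against control liver were 0.25 and −0.39 (edgeR adjusted p = 0.367 and 0.292). In the 18 pairs r was 0.38, 0.42 and 0.70 in the same order. Whether reads were counted by strand is not given in the sources used here, so that reads of such a pair cannot be told apart with certainty. In endotoxemic against control liver the member was called in 5 of the 18 pairs and the neighbour in 9, while 43.4% of all rows were called. The signs were the same in 9 of the 18, and both genes were called in 3. *Mrpl49* overlaps *Syvn1*, a ubiquitin ligase gene of the endoplasmic reticulum, and their 3′ ends lie 90 bases apart. *Syvn1* had 504 and 712 counts in control, 2040 and 1583 in endotoxemic and 1308 and 865 in LGK974 liver, and its log2 fold changes of 2.07 (endotoxemic against control, edgeR adjusted p = 0.000364) and −1.32 (LGK974 against endotoxemic, edgeR adjusted p = 0.0263) went the same way as those of *Mrpl49*. *Mrpl14* fell as did *Tmem63b* (−2.30, edgeR adjusted p = 0.00686). *Mrpl47* rose, while *Ndufb5*, which encodes a subunit of complex I, fell by 0.66 on the log2 scale (edgeR adjusted p = 0.0143).

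**Figure D4:**
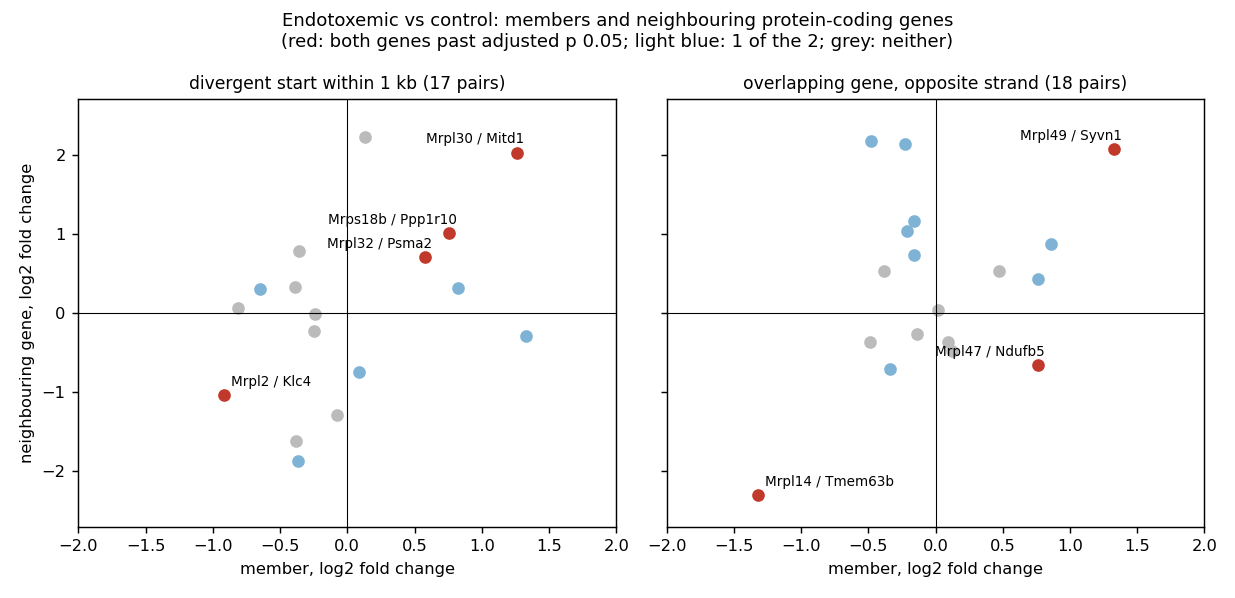
Log2 fold change in endotoxemic against control liver of members (x axis) and of their protein-coding neighbours (y axis), for 17 pairs with divergent starts within 1 kb and 18 pairs that overlap on opposite strands, without *Mrpl46* and *Mrps11*, which overlap each other. In red are the pairs with both genes called, 4 and 3 in number, of which *Mrpl47* and *Ndufb5* alone lie in a quadrant of opposite signs.

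Mitochondrial ribosomal proteins listed under other symbols did not pass the threshold in any comparison. In endotoxemic against control liver, 0 of 6 were called, with a median log2 fold change of −0.32 and 0 unadjusted p values below 0.05 (edgeR, 51.3% of all rows). Between the LGK974 and endotoxemic groups 2 of 6 had an unadjusted p below 0.05 (22.9% of all rows). Between the LGK974 group and control it was 1 of 6 (44.6% of all rows). *Dap3*, for a GTP-binding protein of the small subunit, was at 23.4 and 29.0 CPM in control, 31.1 and 42.7 CPM in endotoxemic and 42.9 and 34.9 CPM in LGK974 liver. *Ict1*, the row that stands for *Mrpl58* and encodes a peptidyl-tRNA hydrolase built into the large subunit, was at 42.7 and 42.7 CPM, 32.7 and 31.9 CPM, and 42.4 and 44.9 CPM, in the same order, and the endotoxemic libraries were the lowest (log2 fold change −0.40 against control, edgeR adjusted p = 0.112).

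The factors that work with the mitochondrial ribosome were also read from a list. Of 15 translation factors, 5 fell and 1 rose in endotoxemic against control liver, with a median log2 fold change of −0.47. That is 40.0% of the list, near the 43.4% of all rows. *Lrpprc*, which stabilizes mitochondrial mRNAs, had the largest fall, from 3671 and 3980 counts in control to 1411 and 1338 in endotoxemic liver (−1.02 ± 0.20, SE, edgeR adjusted p = 0.00323). *Slirp*, its binding partner, was the gene that rose, with 519 and 651 counts in control and 797 and 650 in the less deeply sequenced endotoxemic libraries (0.78 ± 0.20, SE, edgeR adjusted p = 0.0119). In the LGK974 group against control 2 translation factors were lower and *Slirp* was higher (20.0%, against 34.1% of all rows), and the largest fall was that of the elongation factor *Tufm* (−1.42 ± 0.24, SE, edgeR adjusted p = 0.002). Between the LGK974 and endotoxemic groups 0 of 15 were called by edgeR, with 3 unadjusted p values below 0.05 (20.0%, against 22.9% of all rows).

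Finally, the family was set beside the 2 gene families to which its work relates, the cytosolic ribosomal proteins and the nuclear-encoded subunits of oxidative phosphorylation. In endotoxemic against control liver 11 of 75 tested cytosolic ribosomal protein genes rose and 0 fell, with a median log2 fold change of 0.28 and 70 of 75 above 0 (14.7% called). Of 75 tested oxidative phosphorylation genes, 0 rose and 32 fell, with a median of −0.49 and 71 of 75 below 0 (42.7% called, near the 43.4% of all rows). The mitochondrial ribosomal proteins, with 8 of 77 higher, 12 lower and a median of −0.21, lay between them by median. They ranged from −2.03 to 1.33, the cytosolic ribosomal proteins from −0.08 to 1.0 and the oxidative phosphorylation genes from −1.67 to 0.1. Lower and upper quartiles were −0.42 and 0.23, 0.13 and 0.42, and −0.68 and −0.36, in the same order. Summed CPM of the cytosolic family was 13550 and 12980 in control and 16510 and 16370 in endotoxemic liver, and that of the oxidative phosphorylation family was 19160 and 19080 against 13330 and 13480. In the LGK974 group against control the medians were 0.68 for the cytosolic ribosomal proteins, 0.06 for the mitochondrial ones and −0.36 for oxidative phosphorylation. Among the cytosolic ribosomal protein genes 45 of 75 were called higher and 0 lower. Among the 75 oxidative phosphorylation genes 0 were called higher and 17 lower. Of all rows tested, 16.4% were called higher and 17.7% lower in this comparison. These are descriptions, and no test of a difference between the families was made.

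**Figure D5:**
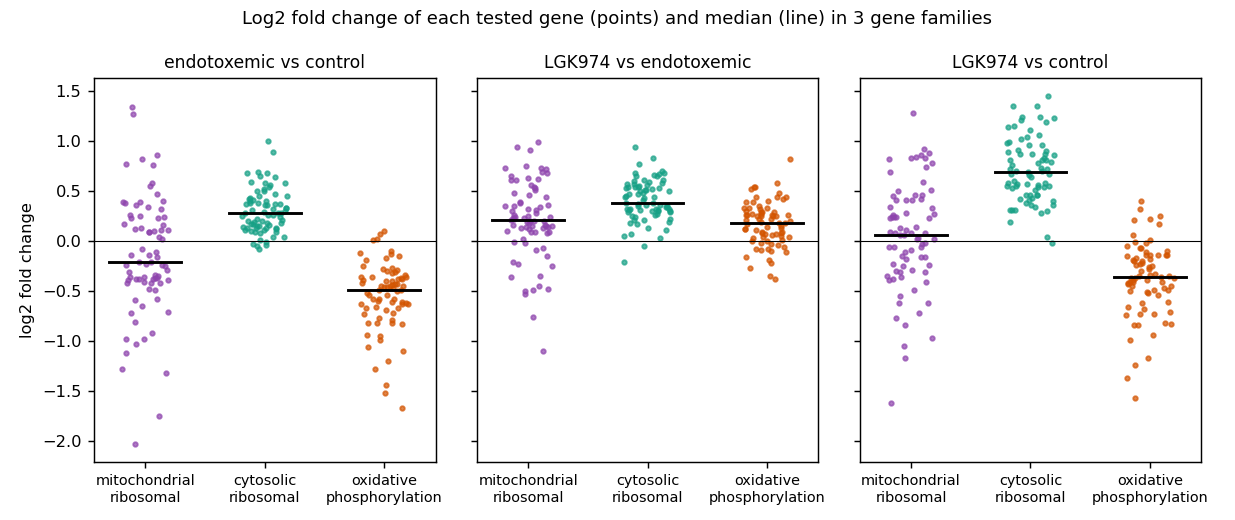
Log2 fold change of each tested gene (points) and the median (line) of 3 gene families in the 3 comparisons. In endotoxemic against control liver the medians are −0.21 for mitochondrial ribosomal proteins, 0.28 for cytosolic ribosomal proteins and −0.49 for oxidative phosphorylation.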

How the data were processed

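Liver RNA was made into Lexogen QuantSeq libraries by the authors, who deposited raw read counts per gene symbol, as whole numbers without normalization. The submitters' processing notes name Bowtie2, edgeR and mm10 with no role or version, and the counting program and its use of strand are not given in the sources used here. Groups follow the titles of the libraries, which name LPS for the endotoxemic group, whereas the treatment protocol in the labels calls the LPS-injected mice "Control" and the saline-injected mice "Normal".

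Endotoxemic libraries with equal counts on all 23282 rows were entered once. Counts were filtered with filterByExpr by group, normalized by TMM and fitted in edgeR 4.0.16 (R 4.3.3) with 1 quasi-likelihood model for the 6 distinct libraries and the group as its only factor. This left 12701 rows (common biological coefficient of variation 0.239), and p-values were adjusted over all of them at a threshold of 0.05. CPM are TMM-normalized, and intervals are at 95%. Totals lay between 9142116 and 15222439 counts, and the width of an interval depended on both a member's counts and the spread between libraries.

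Row order was compared with RefSeq positions on GRCm38 and coordinates were taken from GENCODE. Alternatives were DESeq2 1.42.0, other size factors, other filters, the row *Rn45s* left out, symbols reassigned or left out where rows were out of order, identical libraries kept apart, a replicate block, fits of 2 groups and leaving out each library. The members, lists and motifs were chosen with earlier results of these data known. Named members were the 5 largest called rises and 5 largest called falls of each comparison, the 3 highest and 3 lowest by mean CPM, and *Mrpl12*, *Mrps12*, *Mrpl45*, *Mrpl58* (listed as *Ict1*) and *Dap3* for their roles, and of each other list the largest called rise and fall. Neighbouring genes and members listed by name alone were chosen after their values were seen.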

Additional observations from a re-analysis of the deposited data

How the results depend on the processing

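In endotoxemic against control liver, 8 members were higher and 8 lower and the median log2 fold change of the members was −0.18 with library totals in place of TMM, and the median was −0.17 without a filter and −0.18 in a fit of only the 2 groups, which called 10 members higher and 17 lower (54.4% of all rows, against 43.4% with 3 groups). With identical libraries as separate samples, a setting that repeats the same counts, 26 members were lower, 12 were higher and 60.8% of all rows were called. Between the LGK974 and endotoxemic groups, where 5.62% of all rows were called, 1 member was higher with DESeq2 size factors (5.64% of rows), 1 with library totals (5.84%) and 1 with the replicate block (5.39%), whereas 6 were higher without a filter (9.88%), 5 by DESeq2's Wald test (9.69%), and 15 (with 3 lower) with identical libraries as separate samples (26.0%). A fit of only these 2 groups called 0 higher and 0 lower by edgeR (2.26%). Between the LGK974 group and control, identical libraries as separate samples gave 16 higher and 9 lower (45.9% of rows, against 34.1%). Leaving out each library in turn gave ranges of 2 to 9 higher, 4 to 18 lower and medians of −0.21 to −0.16 (endotoxemic against control, 25.8% to 51.4% of rows called), 0 to 13 higher, 0 to 2 lower and medians of 0.17 to 0.30 (LGK974 against endotoxemic, 0.367% to 17.1%), and 1 to 13 higher, 1 to 12 lower and medians of 0.00 to 0.10 (LGK974 against control, 17.8% to 41.1%). The lowest counts came without a control or endotoxemic library and the highest without an LGK974 library. None of the 37 member calls changed sign under any of the 11 alternatives or without any of the 6 libraries. Of the named values that were not called, 12 did, none of them past the threshold after the change. In endotoxemic against control liver *Mrps12* ran from −0.48 to 0.06 when each library was left out. Between the LGK974 and endotoxemic groups *Mrpl14* ran from −0.30 to 0.49, *Mrps36* from −0.47 to 0.81, *Mrpl53* from −0.08 to 0.85, *Mrps5* from −0.28 to 0.11, *Mrpl54* from −0.05 to 0.04 and *Mrpl19* from −0.05 to 0.09 (−0.00 with library totals). Between the LGK974 group and control *Mrpl53* ran from −0.45 to 0.47, *Mrpl21* from −0.97 to 0.17, *Mrpl2* from −0.11 to 0.14, *Mrpl45* from −0.18 to 0.05 and *Mrps12* from −0.00 to 0.54. Of the 37 calls 26 held in all 11 alternatives and 7 without any single library. *Mrpl12* missed the threshold between the LGK974 and endotoxemic groups with DESeq2 size factors, with library totals, with the replicate block and in the fit of 2 groups.

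Libraries with the same replicate number had deviations from their group mean that correlated across genes. The values were 0.14 for control and endotoxemic, −0.007 for control and LGK974 and 0.061 for endotoxemic and LGK974 libraries. With 2 libraries in each group, these correlations cannot decide whether same-numbered libraries shared a batch or were paired. With the replicate block, 7 members were higher and 11 lower in endotoxemic against control liver, 1 and 1 between the LGK974 and endotoxemic groups, and 10 and 6 between the LGK974 group and control. The widest 95% intervals of the log2 fold change from control to endotoxemic liver were those of *Mrps28*, named after its values were seen, with between 54 and 429 counts (−1.27 to 1.58), and of the lowest member *Mrpl21*, with between 17 and 42 counts (−0.73 to 1.67).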

Other observations

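Genes that load mitochondrial tRNAs, build the mitochondrial ribosome or regulate mitochondrial biogenesis were read from lists chosen with earlier results of these data known. Of 20 mitochondrial aminoacyl-tRNA synthetases and amidotransferase subunits, 0 rose and 5 fell in endotoxemic against control liver (edgeR, 25.0% called against 43.4% of all rows, and 9 with an unadjusted p below 0.05, as had 51.3% of all rows), with a median log2 fold change of −0.52. *Aars2*, the alanyl-tRNA synthetase, had the largest fall, from 97 and 160 counts in control to 24 and 23 in endotoxemic liver (−1.94 ± 0.53, SE, edgeR adjusted p = 0.0158). Between the LGK974 group and control 2 of the 20 were lower (34.1% of all rows were called), and the larger difference was that of the amidotransferase subunit *Gatb* (−0.94 ± 0.27, SE, edgeR adjusted p = 0.0262).

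Of 28 genes for assembly of the mitochondrial ribosome and modification of its RNA, 3 rose and 4 fell in endotoxemic liver (25.0%, against 43.4% of all rows), with a median of 0.06. *Ddx28*, an RNA helicase of the large-subunit assembly pathway, rose from 240 and 284 counts in control to 1024 and 883 in endotoxemic liver and had 1582 and 1334 in the LGK974 group. Against control its log2 fold change came to 2.34 ± 0.23 (SE, edgeR adjusted p = 6e-05) in the endotoxemic and 2.36 ± 0.23 (SE, edgeR adjusted p = 8e-05) in the LGK974 group. The GTPase gene *Mtg1* fell from 160 and 166 counts to 45 and 36 (−1.55 ± 0.33, SE, edgeR adjusted p = 0.00482). *Mpv17l2* was the assembly gene called between the LGK974 and endotoxemic groups, with 77 and 99 counts in endotoxemic and 270 and 369 in LGK974 liver (1.26 ± 0.25, SE, edgeR adjusted p = 0.0241). *Mettl17* had the largest fall from control to the LGK974 group (−1.99 ± 0.47, SE, edgeR adjusted p = 0.0107).

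Of 14 regulators of mitochondrial biogenesis, 1 rose and 2 fell in endotoxemic against control liver (21.4%, against 43.4% of all rows). The coactivator gene *Ppargc1b* fell from 347 and 455 counts in control to 16 and 17 in endotoxemic and 25 and 37 in LGK974 liver (−4.11 ± 0.31 and −3.81 ± 0.30 against control, SE, edgeR adjusted p = 1.5e-05 and 2.1e-05). *Pprc1*, a related coactivator gene, rose from 32 and 29 counts to 63 and 119 (2.02 ± 0.42, SE, edgeR adjusted p = 0.00431) and had 90 and 100 in the LGK974 group.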
